A study of Homo sapiens with 6 samples.

Results

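Intermediate filaments are the rope-like filaments of the cytoplasm, and 10 of their genes were followed here in H69 cells treated with trichostatin A (TSA). They were taken by symbol from the deposited table, in which each matched 1 of 31814 genes: the neurofilament subunit genes NEFL, NEFM, NEFH and INA, the nestin gene NES, the vimentin gene VIM, and the simple epithelial keratin genes KRT7, KRT8, KRT18 and KRT19. H69 is a human cell line, and its tissue of origin is not stated in the labels. The TSA group was grown for 24 h with TSA at 1 µM, an inhibitor of histone deacetylases, and the vehicle group for 24 h with the solvent DMSO, both in RPMI medium with fetal bovine serum. Each group had 3 libraries of polyadenylated RNA. The treatment tag of the TSA samples spells HSA, but the series title, design text and protocol give TSA, which is the name used here. No label states that the libraries of a group come from separate cultures, and the p-values below measure the spread between libraries, which may be technical. Both groups are the same line.

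Neurofilaments are the intermediate filaments of neurons and are mixed polymers. NEFL encodes the light chain, NEFM and NEFH the medium and heavy chains with long tails that project from the filament, and INA encodes alpha-internexin, which joins them as a further subunit. Keratins are obligate pairs of a type I chain (such as KRT18 or KRT19) and a type II chain (such as KRT7 or KRT8), and the pair of KRT8 with KRT18 is the basic filament of simple epithelia. Nestin is best known from neural progenitors and vimentin from mesenchymal cells. Neuroendocrine tumour cells are known to hold both keratin and neurofilament proteins.

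Levels are given as TPM, in which reads are divided by gene length and scaled to a common library total, so that levels of different genes can be compared. TPM itself keeps no depth. Whole reads recovered from the ratios of the TPM values came to between 22737300 and 24427104 per library in TSA and between 22459934 and 26003878 in vehicle. Mitochondrially encoded genes took 16.9%, 7.65% and 10.4% of the TPM total in TSA replicates 1, 2 and 3, and 12.3%, 4.97% and 10.1% in vehicle replicates 1, 2 and 3. Neuroendocrine markers were all above the filter on low values in H69 cells, with 11 of 11 tested and a summed level of 1701 to 1799 TPM in TSA and 2982 to 3548 TPM in vehicle. Bile duct markers, checked because the name H69 is also used for a cholangiocyte line, had 4 of 10 tested and a summed level of 99.5 to 118 TPM in TSA and 107 to 122 TPM in vehicle. By group means the 4 tested were SLC4A2 at 59.6 TPM in TSA and 20.6 TPM in vehicle, SOX9 at 23.0 TPM in TSA and 15.9 TPM in vehicle, MUC1 at 14.3 TPM in TSA and 62.6 TPM in vehicle, and AQP1 at 9.496 TPM in TSA and 12.9 TPM in vehicle. CFTR and SCTR were under 1 TPM in every library. Blood cell markers summed to 5.41 to 6.07 TPM in TSA and 4.00 to 4.92 TPM in vehicle.

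The comparison asked which of these genes changed in cells exposed to TSA. NEFH was 19.1 times as high in TSA as in vehicle by group means, while INA, the most abundant neurofilament gene, did not pass the test. KRT8 and KRT18 were higher in TSA, at 1.55 and 1.48 times the vehicle mean. KRT19, at 0.484 times the vehicle mean, and KRT7, at 0.122 times, were lower. The limma test on log2(TPM + 1) took only genes that reached 1 TPM in 3 or more libraries, which held for 8 of the 10 members. At an adjusted p under 0.05 over all 17596 tested genes, 4 of the 8 were higher (NEFL, NEFH, KRT8 and KRT18) and 3 lower (KRT7, KRT19 and NES). Over all tested genes 62.2% were called, 28.0% higher and 34.2% lower, so being called is common in this comparison. The TSA and vehicle values did not overlap for 5 of the 8 tested members, against 67.0% of all tested genes. TSA was above vehicle in 3 of them and below in 2, against 30.8% and 36.2% of all tested genes. NEFM and VIM did not reach the filter. NEFL reached it through the TSA libraries alone and KRT7 through the vehicle libraries alone, so that each had to differ.

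**Figure D1:**
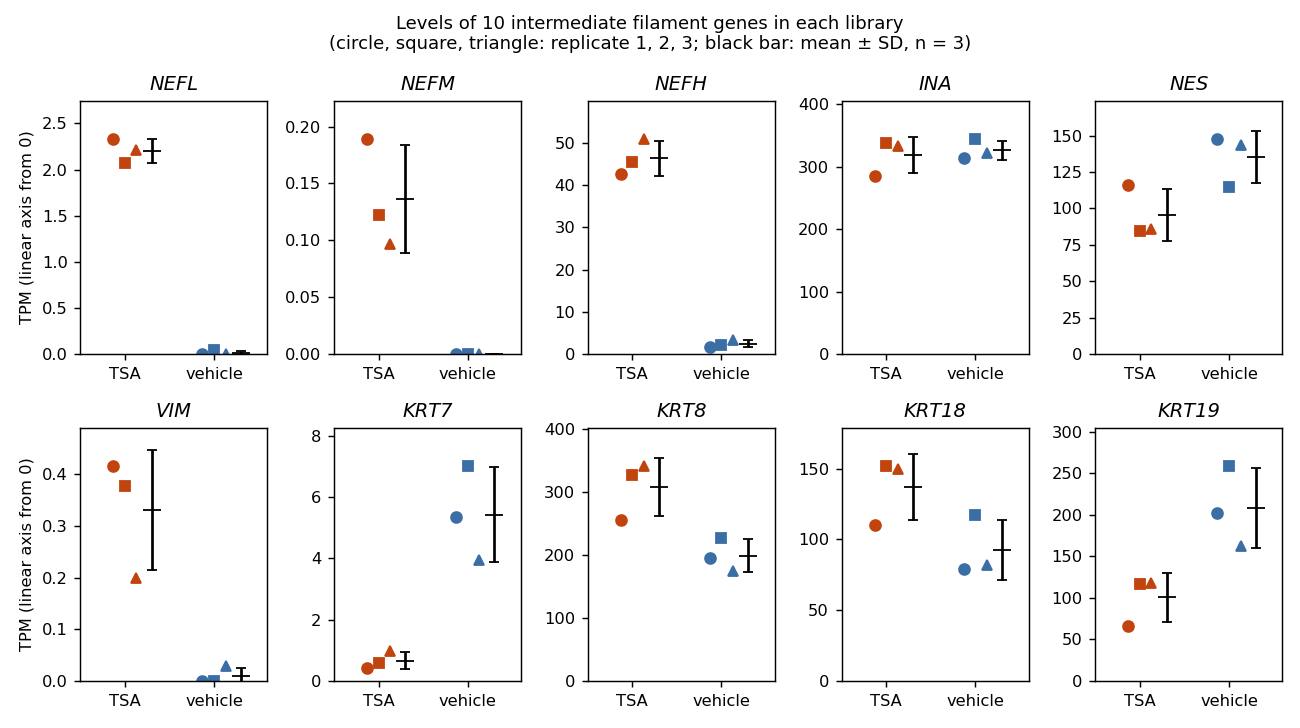
TPM of each of the 10 genes in the 3 TSA libraries (left in each panel, orange) and the 3 vehicle libraries (right, blue), with a separate linear axis from 0 per gene. Symbols mark replicates 1, 2 and 3, and black bars give the mean and SD of 3 libraries. NEFH is at 42.7 to 50.8 TPM in TSA and 1.78 to 3.36 TPM in vehicle, while INA, NES and KRT18 overlap between the groups.

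Sequences before the gene start are shown for the members that the RefSeq promoter table (GRCh38.p14) holds. They set the base composition of the abundant gene INA beside that of the nearly silent gene VIM. NES and KRT8, also abundant, lie between these in G+C content alone. The table matched 4 of the 10 symbols, and NEFL, NEFM, NEFH, KRT7, KRT18 and KRT19 are not among them. Each sequence is the 250 bases before the annotated start, 5′ to 3′ on the strand of the gene, with capitals for the GC box GGGCGG or its reverse complement CCGCCC, overlapping matches included. INA is on the plus strand at chr10:103276888-103277137, VIM on the plus strand at chr10:17227991-17228240, NES on the minus strand at chr1:156677408-156677657 and KRT8 on the minus strand at chr12:52926470-52926719.
INA: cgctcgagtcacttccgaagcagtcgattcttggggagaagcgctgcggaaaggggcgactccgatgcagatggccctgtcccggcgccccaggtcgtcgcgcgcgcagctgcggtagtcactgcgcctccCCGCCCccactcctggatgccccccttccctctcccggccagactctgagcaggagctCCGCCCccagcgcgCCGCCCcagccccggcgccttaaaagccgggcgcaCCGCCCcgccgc
VIM: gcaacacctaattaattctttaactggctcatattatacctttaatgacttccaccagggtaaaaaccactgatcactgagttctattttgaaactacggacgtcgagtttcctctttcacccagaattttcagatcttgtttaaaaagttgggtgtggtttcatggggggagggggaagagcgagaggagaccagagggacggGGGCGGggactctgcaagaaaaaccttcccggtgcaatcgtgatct
NES: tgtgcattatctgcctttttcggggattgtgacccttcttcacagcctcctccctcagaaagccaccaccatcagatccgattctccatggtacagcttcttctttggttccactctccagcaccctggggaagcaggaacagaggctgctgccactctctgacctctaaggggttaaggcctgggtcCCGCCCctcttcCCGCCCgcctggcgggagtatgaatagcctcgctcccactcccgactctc
KRT8: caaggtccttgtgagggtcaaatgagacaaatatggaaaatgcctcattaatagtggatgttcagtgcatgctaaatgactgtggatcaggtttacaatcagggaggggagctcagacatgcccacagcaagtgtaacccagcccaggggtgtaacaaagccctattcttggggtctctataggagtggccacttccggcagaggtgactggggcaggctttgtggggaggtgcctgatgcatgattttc

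The INA window held 4 GC boxes, 30 CpG dinucleotides and 72.8% G+C, higher than the G+C content of 85.3% of the 35116 promoters of the table. VIM had 1 GC box, 8 CpG and 46.0% G+C, NES had 2 GC boxes, 8 CpG and 58.0% G+C, and KRT8 had 0 GC boxes, 1 CpG and 50.4% G+C. Over all promoters the median was 58.0% G+C with 11 CpG, and 42.6% held a GC box on either strand. TATAAA (in 10.7% of all promoters, either strand) and CCAAT (in 32.0%) matched in none of the 4 windows. These are matches of letters in a fixed window and not binding sites. Each window lies before the start that the RefSeq promoter table gives, and which start H69 cells use was not tested.

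Among the neurofilament subunits, NEFH (ENSG00000100285.9), the heavy chain, was at 42.7, 45.4 and 50.8 TPM in the 3 TSA libraries, against 1.78, 2.15 and 3.36 TPM in the 3 vehicle libraries. Every TSA library was far above every vehicle library, and the groups did not overlap. Group means were 46.3 ± 4.11 TPM in TSA and 2.43 ± 0.827 TPM in vehicle (SD, n = 3 each). On the log2 scale that was a difference of 3.81 (standard error 0.19, limma adjusted p 1.4e-05). The change rested on 1173, 1281 and 1360 recovered reads in TSA and 45, 51 and 90 in vehicle. The authors' deposited table gives NEFH a log2 fold change of 4.32, where positive is higher in TSA. In GENCODE 29 its locus overlaps an antisense gene, AC000035.1. Overlaps given here are of whole gene spans, introns included, and whether counted exons overlap was not tested. No source used here states whether the counting used strand, so any reads from exons shared across strands cannot be told apart.

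NEFL (ENSG00000104725.9), the light chain on which neurofilament assembly depends, was at 2.33, 2.07 and 2.21 TPM in TSA, against 0, 0.0390 and 0 TPM in vehicle. These levels are 69, 63 and 64 recovered reads in TSA and 0, 1 and 0 reads in vehicle. Per library total the reads were 199 times as frequent in TSA, with an exact 95% interval of 35.4 to 7917 that covers counting error only. The log2 fold change on the log2(TPM + 1) scale was 1.66 (standard error 0.13, limma adjusted p 7.3e-05). That scale compresses low values, and with a pseudocount of 0.1 the log2 fold change was 4.37. In GENCODE 29 the NEFL locus overlaps the antisense gene AC107373.2 and, on the same strand, the microRNA gene MIR6841.

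NEFM (ENSG00000104722.9), the medium chain, stayed near the limit of detection in both groups. It had 6, 4 and 3 recovered reads in TSA, or 0.189, 0.123 and 0.0968 TPM, and 0 reads in all 3 vehicle libraries. Against a floor of 3 reads over the vehicle group, its 13 TSA reads were 4.41 times as frequent per library total. That value takes the TSA reads as exact, so it is not a lower bound. It was not tested because no library reached 1 TPM. The NEFM locus overlaps the antisense gene AF106564.1 in GENCODE 29.

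INA (ENSG00000148798.5) was at 286, 338 and 333 TPM in TSA, against 314, 344 and 321 TPM in vehicle. The groups overlapped, with means of 319 ± 28.8 TPM in TSA and 326 ± 15.3 TPM in vehicle (SD, n = 3 each). The log2 fold change was −0.037 (standard error 0.11, limma adjusted p 0.78), and its sign changed with the scaling, from 0.084 under a median-of-ratios scaling to −0.037 as deposited. INA had the highest mean of the 10 genes in both groups, though in TSA its libraries overlapped those of KRT8.

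The make-up of the neurofilament transcripts was described by each subunit's share. Of the summed TPM of NEFL, NEFM, NEFH and INA, NEFH made up 12.9%, 11.8% and 13.2% in TSA, against 0.564%, 0.621% and 1.04% in vehicle. INA made up 86.2% to 87.7% in TSA and 99.0% to 99.4% in vehicle. The sum itself overlapped, at 331 to 386 TPM in TSA and 316 to 346 TPM in vehicle. A share within a library does not depend on the scaling between libraries, and 3 libraries against 3 cannot give an exact permutation p below 0.1, so none is given.

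Of the epithelial keratins, KRT8 (ENSG00000170421.7), the type II chain of simple epithelia, was at 256, 328 and 341 TPM in TSA, against 195, 228 and 175 TPM in vehicle. Every TSA library was above every vehicle library. The means were 308 ± 46.2 TPM in TSA and 199 ± 26.5 TPM in vehicle (SD, n = 3 each). On the log2 scale that was a difference of 0.62 (standard error 0.15, limma adjusted p 0.011).

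KRT18 (ENSG00000111057.6), its type I partner, was at 110.1, 152 and 149.8 TPM in TSA, against 79.1, 117 and 81.9 TPM in vehicle. TSA replicate 1 lay below vehicle replicate 2, so the groups overlapped. The log2 fold change was 0.57 (standard error 0.20, limma adjusted p 0.040). That call ended without TSA replicate 2 (adjusted p 0.12), TSA replicate 3 (0.12), vehicle replicate 1 (0.12) or vehicle replicate 3 (0.13), and over its 19 alternatives the adjusted p ran from 0.0051 to 0.13.

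KRT19 (ENSG00000171345.9), a type I keratin with hardly any tail domain and a marker of ductal epithelia, was at 66.7, 117 and 118 TPM in TSA, against 203, 259 and 163 TPM in vehicle. The groups did not overlap. The means were 101 ± 29.4 TPM in TSA and 208 ± 48.2 TPM in vehicle (SD, n = 3 each). On the log2 scale that was a difference of −1.06 (standard error 0.27, limma adjusted p 0.012).

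KRT7 (ENSG00000135480.10), a type II keratin of ductal and glandular epithelia, was at 0.437, 0.590 and 0.966 TPM in TSA, against 5.34, 7.001 and 3.93 TPM in vehicle. These are 13, 18 and 28 recovered reads in TSA and 146, 180 and 114 reads in vehicle, with no overlap. The log2 fold change was −1.93 (standard error 0.23, limma adjusted p 0.00040), and −2.87 with a pseudocount of 0.1. In GENCODE 29 its locus overlaps KRT86 on the same strand and KRT7-AS and the pseudogene KRT87P on the other. Any reads they share with KRT7 could not be separated.

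The 2 type I keratins thus stood in a different proportion in the 2 groups. KRT19 was 0.606, 0.774 and 0.787 times the level of KRT18 in TSA, against 2.56, 2.21 and 1.99 times in vehicle. It made up 41.8 ± 3.53% of the sum of KRT18 and KRT19 in TSA and 69.1 ± 2.70% in vehicle (SD, n = 3 each). The ratio of KRT8 to KRT18 overlapped, at 2.25 ± 0.0823 in TSA and 2.18 ± 0.261 in vehicle. The ratio of the type II chains KRT7 and KRT8 to the type I chains KRT18 and KRT19 was 1.22 to 1.45 in TSA and 0.624 to 0.732 in vehicle, with no overlap. The summed level of the 4 keratins overlapped, at 547 ± 99.0 TPM in TSA and 505 ± 95.6 TPM in vehicle.

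**Figure D2:**
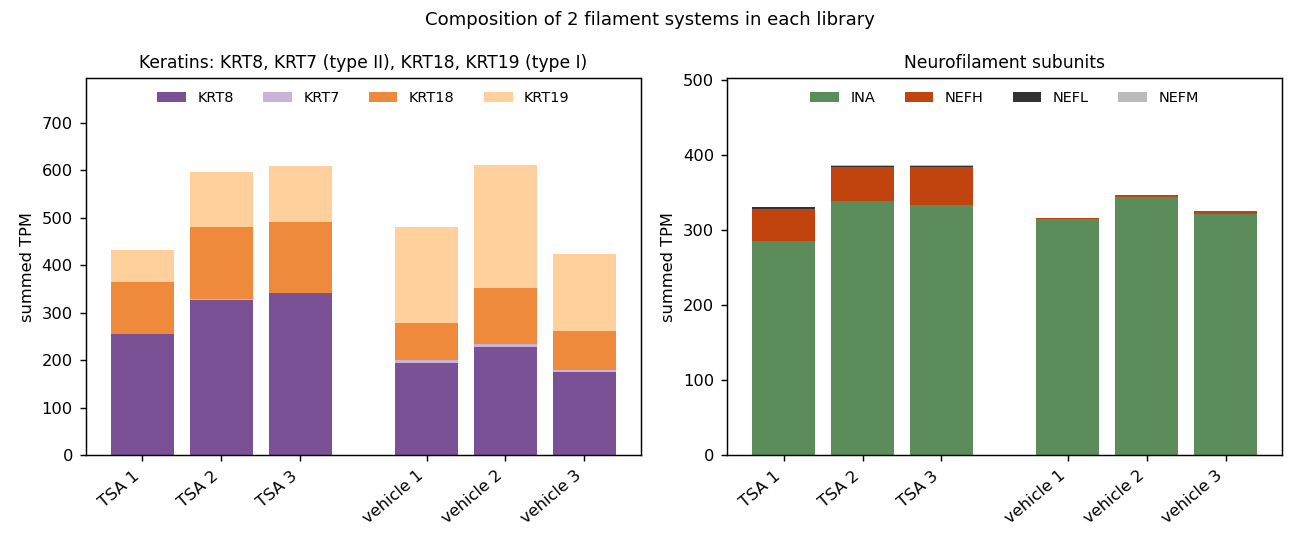
Stacked TPM in each library (3 TSA bars on the left of each panel, 3 vehicle bars on the right) of the keratins KRT8, KRT7, KRT18 and KRT19 and of the neurofilament subunits INA, NEFH, NEFL and NEFM. KRT19 is the smaller of the 2 type I keratins in every TSA library and the larger in every vehicle library, and NEFH is 11.8% to 13.2% of the neurofilament sum in TSA.

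KRT8, KRT18 and KRT19 varied together within the groups only in part. In TSA all 3 were lowest in replicate 1, the TSA library with the highest mitochondrial share. In vehicle all 3 were highest in replicate 2, the vehicle library with the lowest share. The remaining libraries of each group did not fall in the same order for all 3. With mitochondrial genes removed and the libraries rescaled, KRT8 had a log2 fold change of 0.67 (limma adjusted p 0.0027). KRT18 then had one of 0.61 (limma adjusted p 0.014) and KRT19 one of −1.02 (adjusted p 0.0083). In GENCODE 29 the loci of KRT8 and KRT18 overlap on opposite strands.

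KRT8 and KRT18 have many processed pseudogenes, copies of the messenger RNA inserted elsewhere in the genome, and reads of near-identical copies cannot be assigned with certainty. The table listed 66 pseudogenes of KRT8, KRT18 or KRT19. The 32 of KRT8 summed to 36.7 to 39.4 TPM in TSA and 21.3 to 26.7 TPM in vehicle, between 10.9% and 15.4% of KRT8 itself. The 33 of KRT18 summed to 4.59 to 10.9 TPM in TSA and 1.41 to 3.32 TPM in vehicle. Of the 8 pseudogenes with a group mean of 1 TPM or more, 3 were higher in TSA and 0 lower by the limma test, where 28.0% of all tested genes were higher. KRT18P59, 1 of the 3, reached the filter through the TSA libraries alone and could differ only in that direction. They were KRT8P36 at 17.4 ± 2.93 TPM in TSA and 8.42 ± 1.77 TPM in vehicle, KRT8P12 at 6.06 ± 1.32 TPM in TSA and 3.34 ± 0.700 TPM in vehicle, and KRT18P59 at 2.84 ± 1.01 TPM in TSA and 0.193 ± 0.0437 TPM in vehicle. The call of KRT8P12 ended without vehicle replicate 1 (adjusted p 0.068), vehicle replicate 3 (0.065), TSA replicate 3 (0.053) or both replicate 1 libraries (0.089). KRT8P45, KRT8P30, KRT8P46, KRT8P33 and KRT8P3 did not pass, with log2 fold changes of −0.36 to 0.43.

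NES (ENSG00000132688.10) was at 116, 84.7 and 86.1 TPM in TSA, against 147, 115 and 144 TPM in vehicle. The highest TSA library and the lowest vehicle library were at nearly the same level, so the groups overlapped. The means were 95.6 ± 17.7 TPM in TSA and 135 ± 17.7 TPM in vehicle (SD, n = 3 each). On the log2 scale that was a difference of −0.50 (standard error 0.16, limma adjusted p 0.031). That call ended without TSA replicate 2 (adjusted p 0.096), TSA replicate 3 (0.10), vehicle replicate 1 (0.095) or vehicle replicate 3 (0.0995), and the authors' deposited table gives an FDR of 0.056. Over its 19 alternatives the adjusted p ran from 0.0048 to 0.12.

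VIM (ENSG00000026025.9) was nearly silent in H69 cells. It had 15, 14 and 7 recovered reads in TSA, or 0.416, 0.378 and 0.199 TPM, against 0, 0 and 1 read in vehicle. Reads per library total were 36.6 times as frequent in TSA, with an exact 95% interval of 6.17 to 1487 for counting error only, and VIM was not tested because it stayed under 1 TPM. Its locus overlaps the antisense genes VIM-AS1 and AL133415.1. Of 13 other mesenchymal and fibroblast markers 7 were tested. The limma test called THY1, ZEB1, COL1A1, FN1 and SPARC higher in TSA (5 genes) and CDH2 and TWIST1 lower (2 genes). For comparison, 28.0% of all tested genes were called higher and 34.2% lower. THY1 was at a mean of 13.8 TPM in TSA and 6.51 TPM in vehicle, and COL1A1 at 5.44 TPM in TSA and 0.510 TPM in vehicle. Of these 7, 3 (COL1A1, FN1 and SPARC) reached the filter through the TSA libraries alone, so that each had to differ. PDGFRB, ACTA2, LUM, DCN, COL1A2 and COL3A1 were under 1 TPM in every library, and the summed level of the list was 168 to 183 TPM in TSA and 487 to 533 TPM in vehicle. Most of that sum was CDH2, which encodes N-cadherin, at 136 ± 8.50 TPM in TSA and 452 ± 19.6 TPM in vehicle. In bulk RNA a low level in every cell and a higher level in few cells cannot be told apart.

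In order of mean level, the members ran INA, KRT8, KRT18, KRT19, NES, NEFH, NEFL, KRT7, VIM and NEFM in TSA. In vehicle they ran INA, KRT19, KRT8, NES, KRT18, KRT7, NEFH, NEFL, VIM and NEFM. Neighbours whose libraries overlapped were INA with KRT8, KRT18 with KRT19 and KRT19 with NES in TSA, and KRT19 with KRT8, NES with KRT18, NEFL with VIM and VIM with NEFM in vehicle. The other neighbours did not overlap. Together the 10 genes summed to 1010 ± 113 TPM in TSA and 970 ± 92.0 TPM in vehicle (SD, n = 3 each).

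The other genes of the filament system were followed as 6 lists of 103 genes, of which 89 were in the table and 52 were tested. Of these 14 were higher and 19 lower, or 63.5% called, close to the 62.2% of all tested genes. The median log2 fold change over all tested genes was −0.095. Genes in these lists are named by a rule on size and level. Exceptions are KRT86, KRT40, DES, DSG2, SYNE3, CDK5 and CDK5R2, which were chosen after their values were seen.

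Most other keratins had low levels. Of 36 keratin genes in the table outside the members, 24 were under 1 TPM in every library. Of the 9 tested, 3 were higher and 2 lower, against 28.0% and 34.2% of all tested genes. KRT15, a type I keratin of basal epithelial cells, was at 0.292, 0.626 and 0.320 TPM in TSA, against 19.4, 21.3 and 9.67 TPM in vehicle (log2 fold change −3.59, standard error 0.30, limma adjusted p 9.4e-05). It reached the filter through the vehicle libraries alone, so that it had to differ. KRT9, a type I keratin of palm and sole epidermis, fell to 1.12 ± 0.0966 TPM in TSA, against 5.34 ± 1.56 TPM in vehicle. The hair keratin gene KRT81 was higher, at 3.83 ± 0.0667 TPM in TSA and 0.622 ± 0.269 TPM in vehicle. Its near-identical relative KRT86 was also higher, at 1.86 ± 0.350 TPM in TSA and 0.588 ± 0.126 TPM in vehicle, and reads may be split between them. KRT81, KRT86 and KRT40 reached the filter through the TSA libraries alone. KRT40 was at 1.27 to 1.48 TPM in TSA and listed at 0 in all vehicle libraries. KRT5, a type II keratin of basal cells, was at 3.88 ± 0.453 TPM in TSA and 6.14 ± 1.45 TPM in vehicle and did not pass the test (adjusted p 0.053, and 0.015 to 0.19 over its alternatives).

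Of the other cytoplasmic filament genes (types III, IV and VI) 4 of 6 were tested, with 2 higher and 1 lower. Among all tested genes 28.0% were higher and 34.2% lower. PRPH, which encodes the neuronal filament protein peripherin, was at 9.91, 14.1 and 13.9 TPM in TSA, against 4.89, 3.95 and 4.29 TPM in vehicle (log2 fold change 1.33, standard error 0.18, limma adjusted p 0.00064). DES, the muscle filament gene, was at 2.10 ± 0.528 TPM in TSA and 0.0215 ± 0.0373 TPM in vehicle. BFSP1, which encodes the lens filament protein filensin, fell to 0.691 ± 0.344 TPM in TSA, against 9.94 ± 1.24 TPM in vehicle (log2 fold change −2.71, standard error 0.20). DES reached the filter through the TSA libraries alone and BFSP1 through the vehicle libraries alone.

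Among the nuclear lamins, the intermediate filaments of the nucleus, the A-type gene LMNA rose and the B-type genes LMNB1 and LMNB2 fell. LMNA was at 82.0, 88.4 and 97.3 TPM in TSA, against 26.8, 25.2 and 21.1 TPM in vehicle (log2 fold change 1.83, standard error 0.12, limma adjusted p 3.7e-05). LMNB1 was at 66.7, 57.5 and 54.7 TPM in TSA, against 602, 583 and 682 TPM in vehicle (log2 fold change −3.36, standard error 0.11, limma adjusted p 6.1e-06). LMNB2 fell to 69.8 ± 3.42 TPM in TSA, against 276 ± 18.2 TPM in vehicle. TMPO, which encodes the lamina-associated LAP2 proteins, fell to 72.5 ± 3.13 TPM in TSA, against 391 ± 6.87 TPM in vehicle. Of the 13 tested lamins and lamina partners 3 were higher and 7 lower, with a median log2 fold change of −0.77. Over all tested genes 28.0% were higher and 34.2% lower. SYNE3, among the 7 lower genes, reached the filter through the vehicle libraries alone, so that it had to differ.

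Of the proteins that anchor filaments to junctions, 10 of 16 were tested, with 4 higher and 3 lower. The shares over all tested genes were 28.0% higher and 34.2% lower. DSP, which encodes desmoplakin, the link from keratin to the desmosome, was at 92.5, 35.0 and 34.9 TPM in TSA, against 284, 126 and 221 TPM in vehicle. Its libraries spread widely within the groups but did not overlap (log2 fold change −2.02, standard error 0.45, limma adjusted p 0.0075). PERP, a desmosomal membrane protein gene, fell to 62.3 ± 10.6 TPM in TSA, against 381 ± 68.6 TPM in vehicle. PKP2, the plakophilin 2 gene of the desmosomal plaque, rose to 7.97 ± 0.276 TPM in TSA, against 0.132 ± 0.0220 TPM in vehicle. PKP2 and DSG2, another of the 4 higher genes, reached the filter through the TSA libraries alone, so that each had to differ. DST, a plakin gene, was at 13.5, 2.71 and 2.89 TPM in TSA, against 46.1, 15.0 and 34.5 TPM in vehicle. Its call (adjusted p 0.016) ended without TSA replicate 2, TSA replicate 3, vehicle replicate 1 or vehicle replicate 3 (adjusted p 0.052 to 0.058). DSP and DST were highest in replicate 1 of each group, as were PLEC, MACF1 and PNN of the same list (the last 3 named after their values were seen). Of these, PLEC was called higher, at 19.4 ± 9.69 TPM in TSA and 5.70 ± 2.47 TPM in vehicle, and MACF1 and PNN did not pass. Within the groups, genes of greater summed exon length deviated upwards in TSA replicate 1, vehicle replicate 1 and vehicle replicate 3. The Spearman coefficients across genes were 0.24, 0.13 and 0.23. In the other 3 libraries such genes deviated downwards (−0.27 to −0.20). Genes are not independent replicates, and the part of this in the DSP and DST results was tested only by removing length and GC trends, which left DST at −1.44 (adjusted p 0.0036).

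Of genes for kinases, carriers and turnover of filaments 16 of 17 were tested, with 2 higher and 6 lower. Among all tested genes 28.0% were higher and 34.2% lower. CDK5R1, which encodes the p35 activator of the neurofilament kinase CDK5, fell to 29.7 ± 1.33 TPM in TSA, against 175 ± 7.85 TPM in vehicle (log2 fold change −2.52, standard error 0.082, limma adjusted p 6.0e-06). CDK5 itself was higher, at 55.0 ± 6.49 TPM in TSA and 29.3 ± 4.91 TPM in vehicle (limma adjusted p 0.0019). CDK5R2, a further activator gene, did not pass (adjusted p 0.69). AURKB, a mitotic kinase that phosphorylates vimentin, fell to 31.0 ± 9.21 TPM in TSA, against 101 ± 11.6 TPM in vehicle. The kinesin heavy chain gene KIF5B fell to 113 ± 9.41 TPM in TSA, against 318 ± 22.7 TPM in vehicle. The count of higher genes was 5 under quantile scaling or with length and GC trends removed, and 4 under median-of-ratios scaling, the replicate block or voom.

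**Figure D3:**
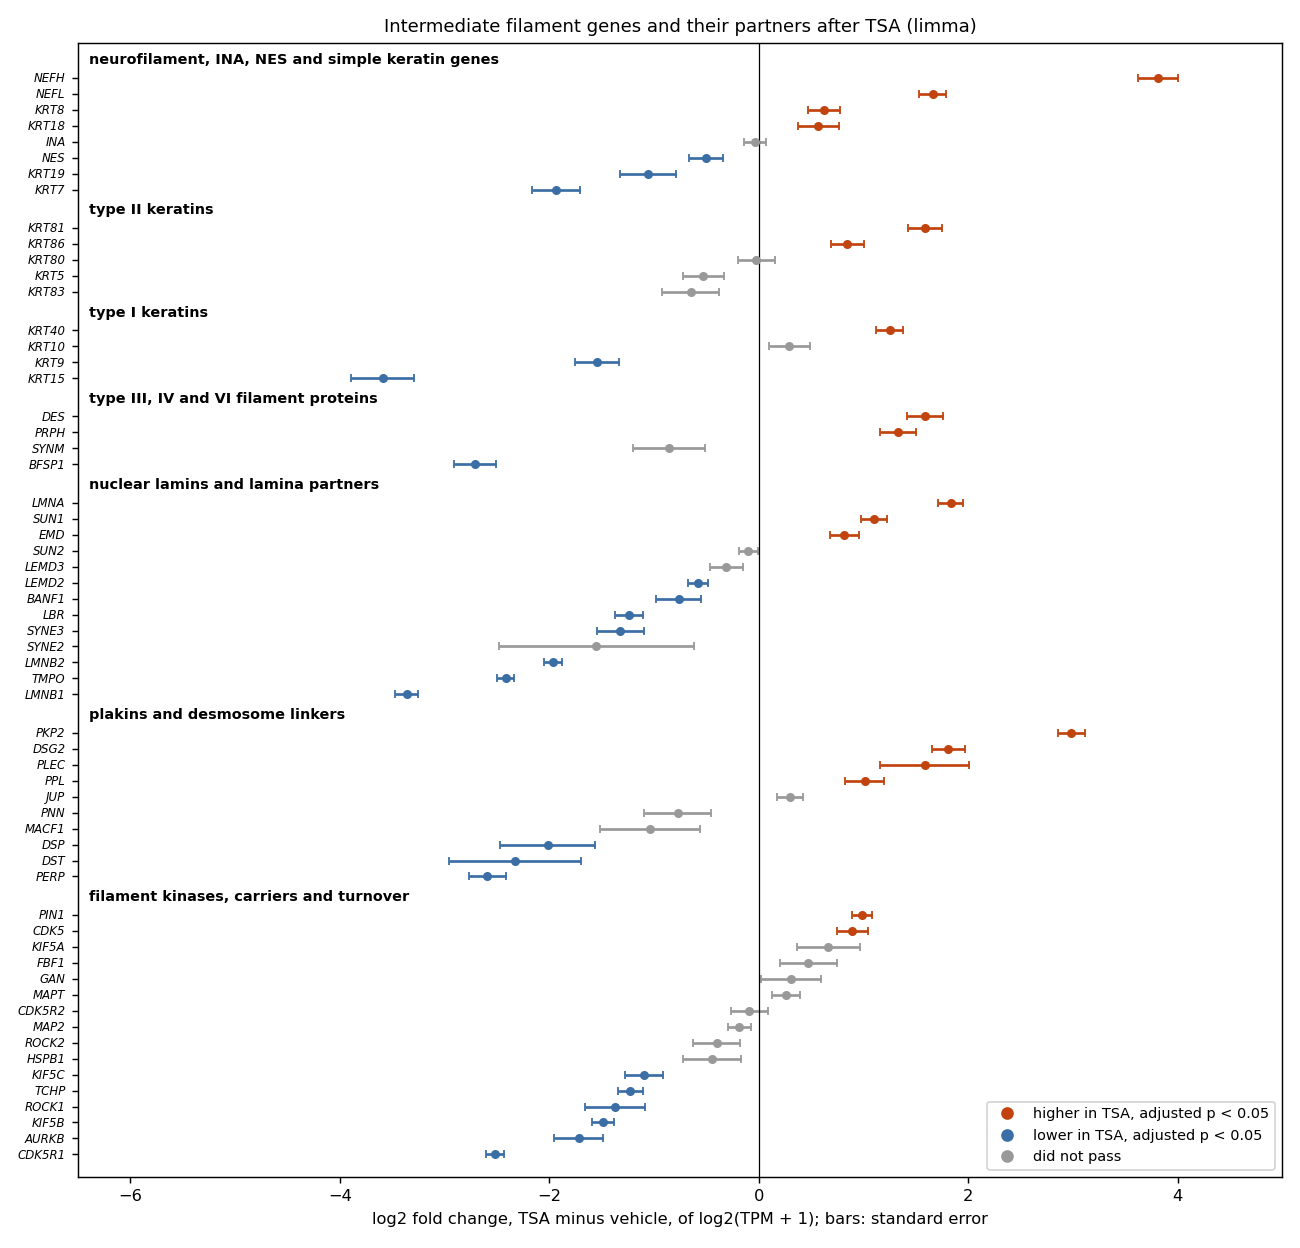
Log2 fold change of log2(TPM + 1), TSA minus vehicle, with its standard error from limma, for the 8 tested members and the 52 tested genes of 6 filament lists. Orange marks genes higher and blue genes lower at an adjusted p under 0.05, and grey genes did not pass. NEFH lies at 3.81 and LMNB1 at −3.36, and every list holds genes on both sides of 0.

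Simple epithelial markers, given beside the keratins because they mark the same kind of cell, had 9 of 10 tested, with 1 higher and 5 lower. Of all tested genes, 28.0% were higher and 34.2% lower. The summed level of these markers was 318 to 399 TPM in TSA and 901 to 1035 TPM in vehicle. Most of that sum was EPCAM, at a mean of 215 TPM in TSA and 600 TPM in vehicle. EPCAM, CLDN3, CLDN4, CLDN7 and ESRP1 were lower, and OCLN, ELF3 and ESRP2 did not pass. CDH1 went the other way, at a mean of 66.2 TPM in TSA and 18.3 TPM in vehicle (limma adjusted p 1.5e-05). The part of these markers in the keratin results was not tested.

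**Figure D4:**
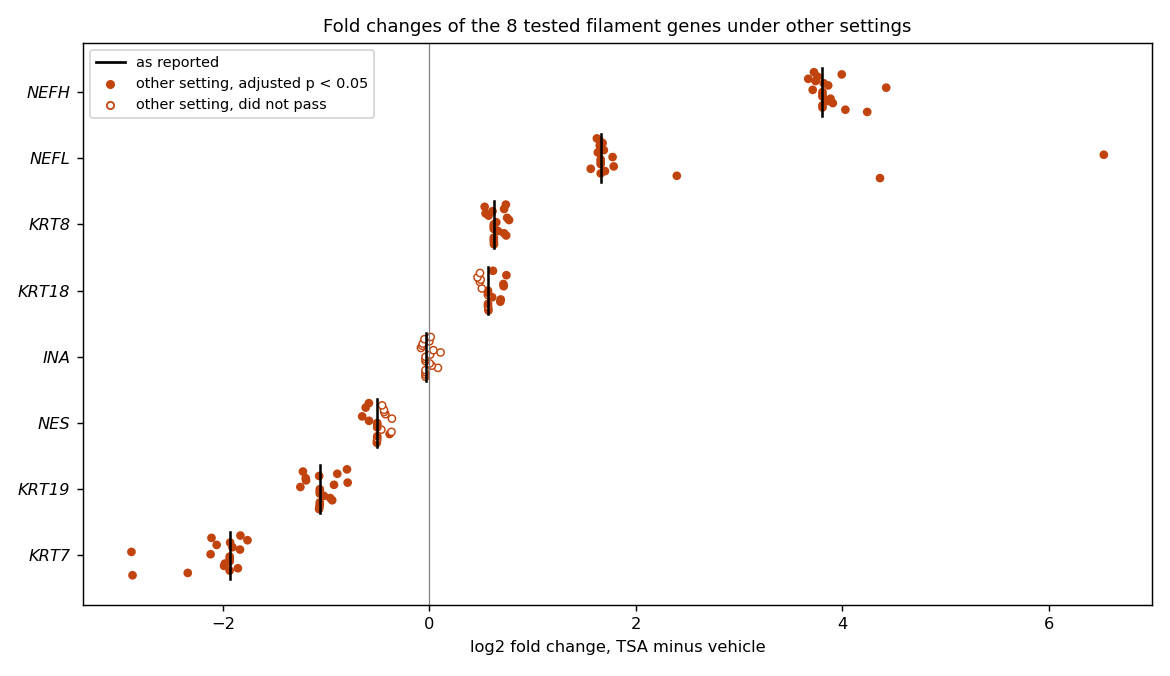
Log2 fold change, TSA minus vehicle, of the 8 tested members as reported (black bars) and under each other setting (points, filled where the adjusted p of limma was under 0.05). NEFH, KRT8 and KRT19 pass under every setting shown, as do NEFL and KRT7, which entered the test through 1 group alone, KRT18 and NES do not under some, and INA lies on both sides of 0 and passes under none.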

How the data were processed

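The authors deposited TPM for 31814 genes in 6 libraries, per the file headers, with GENCODE 19 in the table's name. Libraries were made with a stranded poly(A) kit, per the labels' protocols. The build hg19 and the tools STAR 2.5.3a, featureCounts, FastQC 0.11.2, edgeR and Picard 1.127 are named without roles, per the submitters' processing notes. The authors' deposited comparison gives a log2 fold change, a likelihood ratio score, and a p-value with FDR per gene, per the file headers. Its sign was checked against the TPM values.

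TPM ratios between libraries gave whole reads for 27643 of 27644 genes above 0 in at least 2 libraries (relative tolerance 1e-10). No pair of libraries of a group agreed within sampling noise (chi-square per degree of freedom 6.79 to 89.4).

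limma 3.58.1 in R 4.3.3 (trend) was run on log2(TPM + 1), two-sided, for genes at 1 TPM in 3 or more libraries. P-values were adjusted over every tested gene (Benjamini-Hochberg), and the code was tested on simulated data. Fold changes on this scale understate low genes. GENCODE 29, on another build, served for lengths, GC content and overlaps, without coordinates. Members and lists were chosen with earlier results of these data known. The rule named, per list, up to 4 called genes of greatest change whose higher group averaged 5 TPM or more, or, where fewer than 2 passed, the 2 with the highest mean TPM, and keratin pseudogenes at a mean of 1 TPM. A symbol on several rows was taken at its most abundant row. Of the listed genes KRT1, KRT2, KRT6B, KRT6C, KRT76, KRT84, KRT12, KRT26, KRT31, KRT33A, KRT33B, KRT34, KRT35, KRT36 and HBB were not analysed here. Alternatives were other pseudocounts (0.1, 0.5), filters (none, 5 TPM), scalings and variance models, no mitochondrial genes, the replicate number as a block, length and GC trends removed, limma's voom on recovered reads, and leaving out libraries. Figures were drawn with matplotlib 3.10.9.
The intervals cover counting error only, and the floor of 3 reads leaves out the counting error of the TSA reads. Some listed genes, including 1 that the rule names among the kinases and carriers, are not reported here.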

Additional observations from a re-analysis of the deposited data

How the results depend on the processing

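NEFH, KRT8 and KRT19 kept their direction and passed the test under every alternative run, though under the 5 TPM filter NEFH entered through TSA alone. NEFL and KRT7 did so where tested, which is no sign of stability because the filter fixed their direction. The counts of called genes over the whole table stayed within 1.5 times. The cause was not tested for the following changes. NES no longer passed with no filter (log2 fold change −0.50), quantile scaling (−0.37), mitochondrial genes removed (−0.46) or voom on recovered reads (−0.36), and ran from −0.65 to −0.43 when single libraries were left out. KRT18 no longer passed with no filter (0.57), limma without trend (0.57) or length and GC trends removed (0.51), and ran from 0.47 to 0.75 when single libraries were left out. INA, which never passed, turned positive under median-of-ratios scaling (0.084), quantile scaling (0.024), without mitochondrial genes (0.0040), with length and GC trends removed (0.0087), under voom (0.11) and without both replicate 1 libraries (0.013), and ran from −0.081 to 0.040 when single libraries were left out. The log2 change of the KRT8 to KRT18 ratio ran from −0.026 to 0.14. The filament lists held 9 higher genes under the 5 TPM filter, which tests fewer genes, against 14. KRT8P30 ran from −0.55 to 0.17 and KRT8P33 from −0.47 to 0.020 when single libraries were left out, and KRT8P30 was at 0.069 without both replicate 1 libraries. Without a filter NEFM and VIM passed (limma adjusted p 0.029 and 0.0094).

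Median-of-ratios and quantile scaling moved the median of all genes by 0.10, and 50.1% and 50.4% of called genes were then higher, against 45.05% as deposited. The share was 50.8% after removal of the length and GC trends (a shift of 0.12) and 51.4% under voom (0.13). Whether the replicate numbers pair the libraries was not settled. Deviations from the group mean correlated at 0.63 and 0.59 for replicates 1 and 2 and at −0.073 for replicate 3. TSA replicate 3 correlated best with vehicle replicate 2. Deviations within a group sum to 0, so the value for replicate 3 is not independent of the others. The mitochondrial share was highest in replicate 1 and lowest in replicate 2 of both groups. With the replicate block 5637 genes were higher and 6848 lower, against 4929 and 6013, and no call of a member changed (NES −0.50, adjusted p 0.0049). Depth limits NEFM, VIM and, in vehicle, NEFL to a few reads.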
